A study of Mus musculus with 12 samples.

Results

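The genes of intestinal cobalamin (vitamin B12) uptake were followed here in the proximal ileal epithelium of mice given TCDD, the most potent of the dioxins and a persistent ligand of the aryl hydrocarbon receptor. The set was chosen by name and holds 6 genes: Cubn, Amn, Lmbrd1, Abcc1, Tcn2 and Cd320. All 6 were among the 46078 genes counted and all 6 passed the filter on low counts that left 15823 genes for testing. The libraries came from male C57BL/6 mice that were gavaged every 4 days, 7 times in all, starting at 28 days of age, and their tissue was taken at 56 days of age. Control mice received the sesame oil vehicle, and the others received TCDD in that oil at 3, 10 or 30 µg/kg. There were 3 libraries per group and 12 in all, made from RNA of epithelial scrapings, so each value is a mean over all cells scraped. Levels are given as CPM, the counts of a gene scaled to a common library size.

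Dietary cobalamin reaches the small intestine bound to intrinsic factor. On the brush border of enterocytes this complex is bound by cubilin (Cubn), a very large receptor without a membrane anchor of its own, and amnionless (Amn) anchors cubilin in the membrane and carries the pair through endocytosis. Within the cell cobalamin is freed in lysosomes and leaves them with the help of LMBD1 (Lmbrd1), crosses the basolateral membrane through the efflux pump MRP1 (Abcc1), and travels in blood on transcobalamin (Tcn2), which other cells take up by the receptor CD320 (Cd320).

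Cubn spans chr2:13276338-13491813 on the minus strand and Amn spans chr12:111271095-111276426 on the plus strand (GENCODE M21, GRCm38). The 250 bases before the transcription start of both receptor genes are shown because Cubn and Amn form one receptor, and their levels per length changed order over the doses. Capitals mark a match to one of 4 motifs searched on both strands: GCGTG (the core that the aryl hydrocarbon receptor binds), CACGTG (the E-box bound by CLOCK and BMAL1), TTATGNAA (the D-box bound by DBP) and AGGTCA (a nuclear receptor half-site).
Cubn promoter, chr2:13491877-13492126, minus strand: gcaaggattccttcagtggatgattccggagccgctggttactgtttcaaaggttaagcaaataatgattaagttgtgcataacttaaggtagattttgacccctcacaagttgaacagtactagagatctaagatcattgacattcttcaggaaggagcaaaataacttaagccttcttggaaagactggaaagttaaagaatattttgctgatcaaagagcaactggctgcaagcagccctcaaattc
Amn promoter, chr12:111270846-111271095, plus strand: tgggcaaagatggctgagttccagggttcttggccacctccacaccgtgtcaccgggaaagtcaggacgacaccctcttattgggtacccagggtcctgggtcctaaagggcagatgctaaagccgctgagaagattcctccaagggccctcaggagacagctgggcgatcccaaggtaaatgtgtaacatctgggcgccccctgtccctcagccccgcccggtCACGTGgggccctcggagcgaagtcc
The Cubn window held none of the 4 motifs, and the Amn window held 1 CACGTG, whose match lay 26 bases before the start. Among 32851 promoter windows of this length in the RefSeq table (GRCm38.p6), 28.2% held GCGTG, 6.02% held CACGTG, 3.07% held TTATGNAA and 14% held AGGTCA. For Lmbrd1, the first of its windows held 2 GCGTG, 1 TTATGNAA and 1 AGGTCA, and the second held none of the 4. For Cd320, the first window held 1 AGGTCA and the second 4 GCGTG. A match is only a match of letters in this window, and it was not tested as a binding site. Tcn2 and Abcc1 had no entry in that table.

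The libraries held 11695887 to 22180274 counts assigned to genes, and the correlation of log2 CPM between pairs of libraries ran from 0.9601 to 0.9880. Cyp1a1, a direct target of the aryl hydrocarbon receptor, served to check the dose labels: it ran from 19.0 to 27.5 CPM in vehicle and from 22.2 to 141 CPM after 3 µg/kg. It ran from 873 to 1333 CPM after 10 µg/kg and from 2608 to 3251 CPM after 30 µg/kg. The epithelial genes Epcam (1041 to 1312 CPM) and Vil1 (3031 to 4478 CPM) were high in every library. The regional markers were mixed. Of 6 markers of the distal ileum, the bile acid carrier Slc10a2 (0.451 to 16.5 CPM), the bile acid binding protein Fabp6 (0 to 38.3 CPM) and the hormone Fgf15 (0 to 2.11 CPM) were low. The other 3 were well detected: the basolateral bile acid carriers Slc51a (99.1 to 162 CPM) and Slc51b (46.9 to 177 CPM) and the bile acid receptor Nr1h4 (22.5 to 46.9 CPM). Fabp6 and Fgf15 were called higher than vehicle at 3 µg/kg, where 0.228% of all genes were called, and at no other dose. Of 6 markers of the proximal intestine, the lactase Lct (2080 to 3831 CPM), Gata4 (143 to 170 CPM) and Onecut2 (47.9 to 116 CPM) were well detected, and Slc40a1 (2.68 to 8.63 CPM), Cybrd1 (1.43 to 3.55 CPM) and Pdx1 (0.072 to 0.817 CPM) were low. At 30 µg/kg, 6 of 7 Paneth cell markers, 4 of 7 goblet cell markers and 4 of 8 enteroendocrine markers were called higher than in vehicle, as were 3.08% of all genes, whereas 0 of 11 enterocyte markers were called at any dose.

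The brush border receptor gene Cubn was the member that moved with dose. It measured 1109, 1452 and 1185 CPM in the 3 vehicle libraries. At 3 µg/kg it measured 1722, 464 and 399 CPM. At 10 µg/kg it measured 707, 221 and 185 CPM, and at 30 µg/kg 385, 341 and 158 CPM. Every library at 10 and at 30 µg/kg lay below every vehicle library, while at 3 µg/kg 1 library exceeded all vehicle libraries and the other two lay below them. Such complete separation below vehicle was shown by 11.0% of all genes tested at 10 µg/kg and by 12.5% at 30 µg/kg. The mean was 1249 ± 180 CPM in vehicle and 295 ± 120 CPM at 30 µg/kg (SD, n = 3 each).

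**Figure D1:**
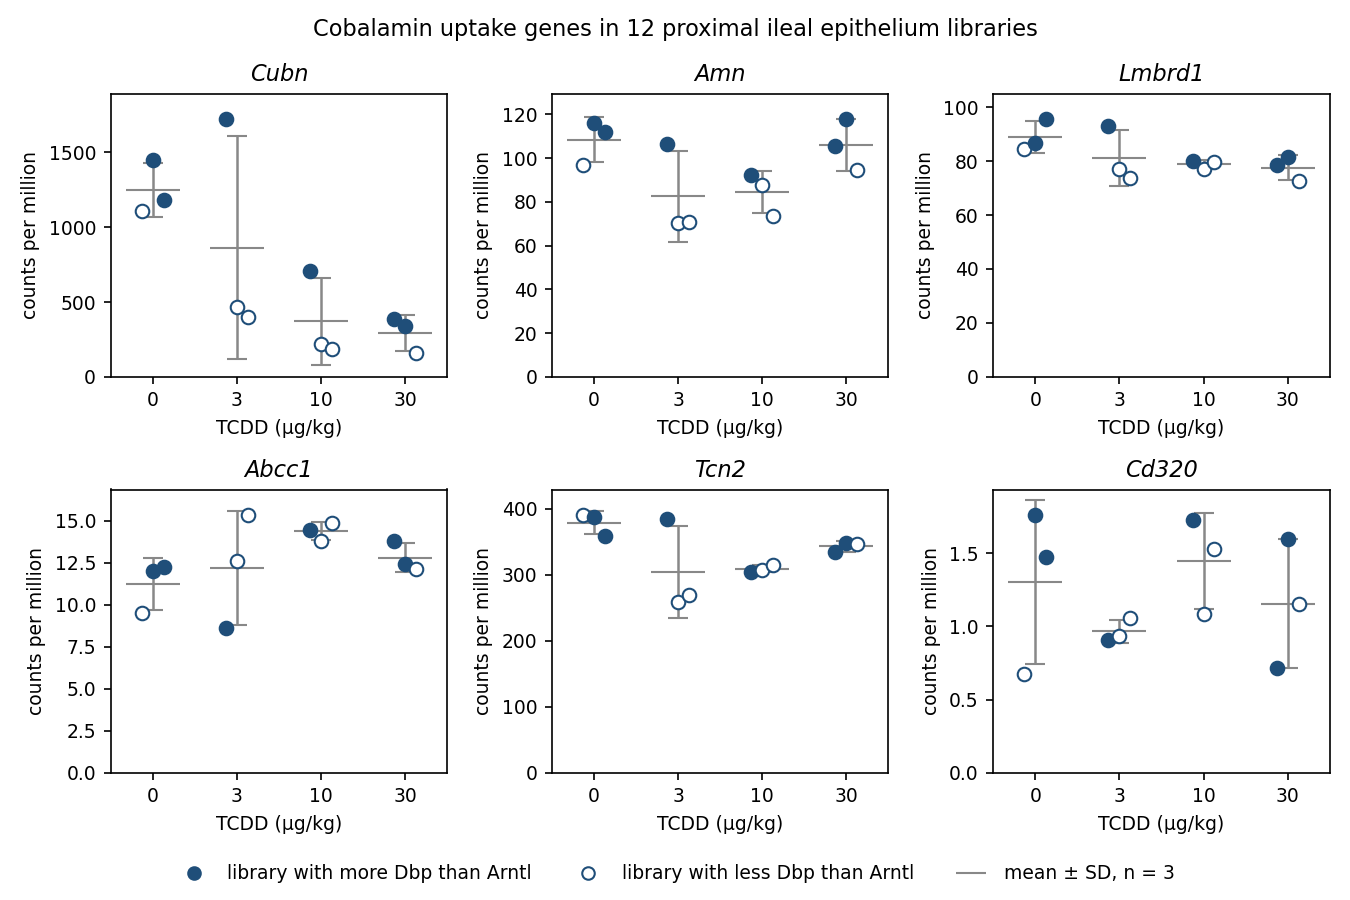
Level of each of the 6 genes in CPM (vertical axes, from 0) against the TCDD dose in µg/kg. Each point is 1 library, filled where it held more Dbp than Arntl and open where it held less, and the grey bars are the mean ± SD of 3 libraries. Cubn is the panel in which the 10 and 30 µg/kg libraries sit far below vehicle, and within each dose its filled points lie above its open points.

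Over the ordered doses Cubn fell by 2.23 on the log2 scale from vehicle to the top dose (SE 0.53, 95% interval -3.36 to -1.10, adjusted p = 0.0274 by edgeR's quasi-likelihood test over all genes). Across all genes 3.29% were called in this trend and 0.752% were called lower. The call was lost when any 1 of 4 of the 12 libraries was left out, and it held without each of the other 8: the adjusted p was 0.0696 without vehicle replicate 2, 0.0523 without vehicle replicate 3, 0.0549 without 30 µg/kg replicate 2 and 0.0922 without 30 µg/kg replicate 3, all by edgeR. It was also lost, at an edgeR adjusted p of 0.0699, when the spread was estimated robustly. The ordinary estimate, which gave the call, was set in place after the robust values had been seen.

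Against vehicle dose by dose, Cubn did not pass the threshold of an adjusted p under 0.05 with a change of at least 1.5-fold. The fitted difference in log2 units was -0.54 at 3 µg/kg (SE 0.58, adjusted p = 0.767 by edgeR) and -1.75 at 10 µg/kg (SE 0.60, adjusted p = 0.193 by edgeR). The 30 µg/kg value was -2.08, a 4.24-fold lower level, with a 95% interval of -3.39 to -0.78 and an edgeR adjusted p of 0.0622. Only 72 of the 15823 genes tested had a fitted change at 30 µg/kg as low as that of Cubn or lower, Cubn included. The value passed the threshold without 3 µg/kg replicate 1 (adjusted p = 0.0167) and without 10 µg/kg replicate 1 (adjusted p = 0.0338), both by edgeR. Those libraries are of other doses, and the value itself stayed at -2.08. It also passed with the library index, 3 barcodes each used once per dose, as a covariate (-2.27, edgeR adjusted p = 0.0133). Of 23 alternatives, 7 called the 30 µg/kg value and 16 left it uncalled. Leaving out 1 library at a time gave edgeR adjusted p-values from 0.0167 to 0.18. The steps between doses were -1.21 from 3 to 10 µg/kg (edgeR adjusted p = 1) and -0.33 from 10 to 30 µg/kg (edgeR adjusted p = 0.792), and neither passed, where 0.158% and 2.77% of all genes did. The values at 3 µg/kg turned on single libraries: leaving out 3 µg/kg replicate 1 gave -1.54 for Cubn against vehicle and -0.20 for the step from 3 to 10 µg/kg, neither of them called. Without 3 µg/kg replicate 2 or 3 the difference from vehicle was -0.23 or -0.19, and without 10 µg/kg replicate 1 the step from 3 to 10 µg/kg was -2.08 and that from 10 to 30 µg/kg 0.53, again not called.

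Amnionless, the partner that anchors cubilin, was called neither at any dose nor in the trend (-0.02 on the log2 scale, SE 0.18, edgeR adjusted p = 0.964). Amn measured 96.9, 116 and 112 CPM in vehicle, and 107, 70.6 and 70.7 CPM at 3 µg/kg. At 10 µg/kg it measured 92.5, 87.6 and 73.7 CPM, and at 30 µg/kg 106, 118 and 94.5 CPM. The 10 µg/kg libraries all lay below vehicle, as they did for 11.0% of all genes, and the 30 µg/kg libraries overlapped vehicle. For the top dose its log2 change was -0.03 with a 95% interval of -0.38 to 0.31 (edgeR adjusted p = 0.933), so a fall of the size fitted for Cubn lies outside that interval. At 3 µg/kg it was -0.39 (edgeR adjusted p = 0.385) and at 10 µg/kg -0.36 (edgeR adjusted p = 0.296). Without 3 µg/kg replicate 1, Amn at 3 µg/kg was past the threshold at -0.62 (edgeR adjusted p = 0.0399).

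Per length of exon the means of the receptor pair changed their order. In vehicle Cubn stood at 83.6 ± 12.1 CPM per kb and Amn at 58.9 ± 5.54 CPM per kb, and at 30 µg/kg Cubn stood at 19.7 ± 8.06 and Amn at 57.5 ± 6.35 (SD, n = 3 each). Cubn per kb divided by Amn per kb was 1.41, 1.54 and 1.3 in the vehicle libraries. It was 1.99, 0.811 and 0.697 at 3 µg/kg and 0.943, 0.311 and 0.31 at 10 µg/kg. At 30 µg/kg the ratio was 0.449, 0.357 and 0.206, below every vehicle library, as was also the case at 10 µg/kg. In a bulk sample, fewer cells that carry Cubn and less Cubn RNA per cell cannot be told apart.

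Of 11 markers of absorptive enterocytes, 0 were called at any dose or in the trend, the dose test in which Cubn was called. Among all genes, only 0.752% were called lower in the trend and 0.891% at 30 µg/kg. The summed level of the 11 markers ran from 53770 to 58924 CPM in vehicle and from 48389 to 61627 CPM at 30 µg/kg. At 3 µg/kg it was 68041, 45803 and 48899 CPM in replicates 1, 2 and 3, and at 10 µg/kg 54496, 50473 and 51263 CPM. The summed level of 7 Paneth cell markers did move with dose, from 695 to 1065 CPM in vehicle to 2207 to 2996 CPM at 30 µg/kg. Its part in the Cubn values was not tested. The summed level of 6 markers of the proximal intestine, mostly Lct, ran from 3413 to 3598 CPM in vehicle and from 2533 to 2987 CPM at 30 µg/kg, and 1 of the 5 that were tested, the iron exporter Slc40a1, was called lower there. Its part in the Cubn values was not tested either. Cubn shares 2.46% of its exon bases with an antisense transcript, Gm13270, which held 3 to 25 counts per library against 2884 to 31364 for Cubn.

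The genes that act behind the receptor had smaller fitted changes than Cubn, and 0 of them were called. Lmbrd1, which helps cobalamin out of the lysosome (chr1:24678630-24766301, plus strand), measured 84.4, 86.8 and 95.5 CPM in vehicle and 78.4, 81.7 and 72.6 CPM at 30 µg/kg. All libraries at 10 µg/kg (77.2 to 80.1 CPM) and at 30 µg/kg lay below vehicle, by a small amount. Such separation was shown by 11.0% of all genes at 10 µg/kg and by 12.5% at 30 µg/kg. The fitted log2 change of Lmbrd1 for the top dose was -0.20 with a 95% interval of -0.41 to 0.01 (edgeR adjusted p = 0.264).

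Abcc1 encodes the efflux pump MRP1 of the basolateral membrane (chr16:14361558-14475737, plus strand). It measured 9.48, 12.0 and 12.2 CPM in vehicle and 13.8, 12.4 and 12.2 CPM at 30 µg/kg, and the groups overlapped. At 10 µg/kg its libraries (13.8 to 14.9 CPM) all lay above vehicle, as 11.9% of all genes did. The log2 change was 0.35 at 10 µg/kg (edgeR adjusted p = 0.346) and 0.19 at 30 µg/kg (edgeR adjusted p = 0.588).

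Tcn2, the gene of the blood carrier transcobalamin (chr11:3917192-3932159, minus strand), was the member with the highest level per length, at 174 ± 8.17 CPM per kb in vehicle. It measured 391, 389 and 359 CPM in vehicle. It measured 385, 259 and 270 CPM at 3 µg/kg, 305, 307 and 316 CPM at 10 µg/kg, and 334, 349 and 347 CPM at 30 µg/kg. The 10 and 30 µg/kg libraries were all below vehicle, as for 11.0% and 12.5% of all genes, but the lowest group was not the highest dose. The log2 change was -0.32 at 3 µg/kg (edgeR adjusted p = 0.39), -0.29 at 10 µg/kg (edgeR adjusted p = 0.293) and -0.14 at 30 µg/kg (95% interval -0.42 to 0.13, edgeR adjusted p = 0.559). Vascular endothelium also makes transcobalamin, and 9 endothelial markers together summed to 15.9 to 52.0 CPM, with 0 of the 8 tested called against vehicle at any dose.

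Cd320, the receptor by which cells take up transcobalamin (chr17:33843091-33849774, plus strand), was near the limit of detection at 12 to 38 counts per library. Its level lay between 0.677 and 1.76 CPM in vehicle and between 0.715 and 1.6 CPM at 30 µg/kg. Its fitted log2 change for the top dose was -0.22 with a 95% interval of -1.06 to 0.62 (edgeR adjusted p = 0.793), so changes of that span in either direction were not detectable at this depth.

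Dose by dose, 0 of the 6 members were called at 3, 10 or 30 µg/kg, where 0.228%, 0.613% and 3.97% of all genes were called. The median log2 change of the 6 was -0.36, -0.23 and -0.17 at the 3 doses, against 0.00, -0.01 and -0.02 over all genes tested. The doses share the same vehicle libraries.

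**Figure D2:**
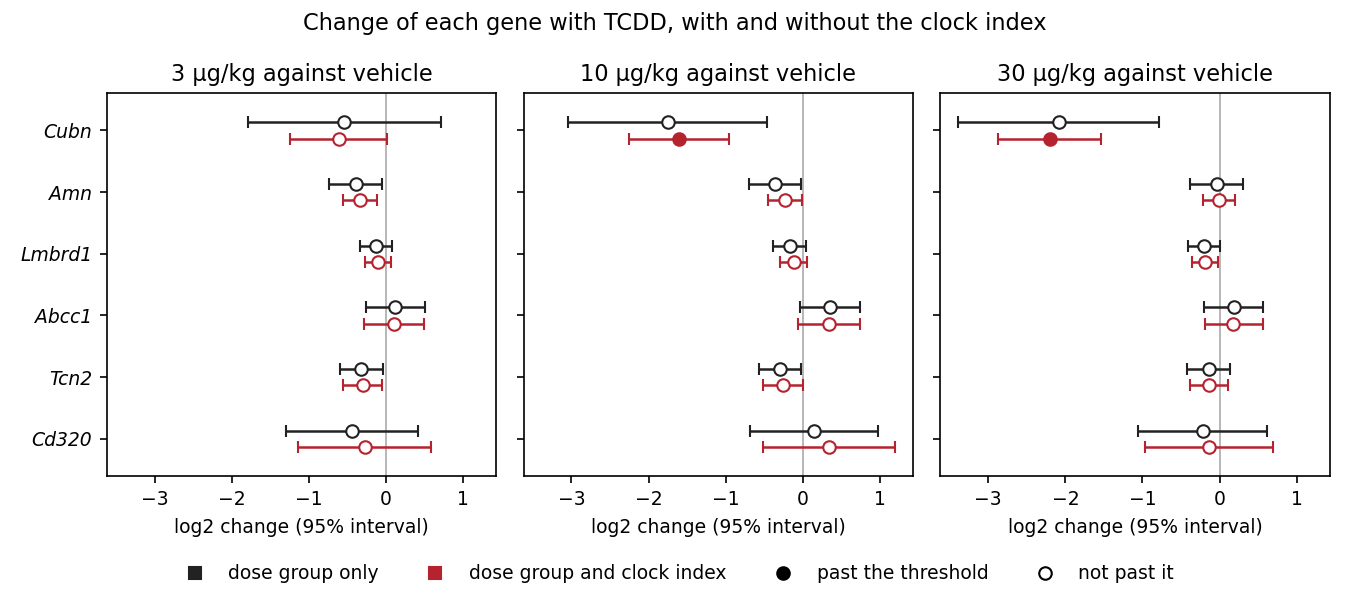
Log2 change of each gene against vehicle (horizontal axis) with its 95% interval at 3, 10 and 30 µg/kg, fitted with the dose group only (black) and with the clock index added (red). Filled points passed the threshold: they are Cubn at 10 and 30 µg/kg with the clock index, at -1.61 and -2.20.

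The libraries also differed in the state of the circadian clock, which was read from 2 genes that cycle in opposite phase: Dbp, an output gene of the clock, and Arntl, which encodes its core activator BMAL1. Dbp ran from 0.980 to 121 CPM and Arntl from 5.51 to 64.5 CPM. A clock index, the log2 CPM of Dbp minus that of Arntl, was -5.71, 4.32 and 3.53 in the vehicle libraries and 4.02, -3.60 and -4.61 at 3 µg/kg. It was 3.30, -5.34 and -5.88 at 10 µg/kg and 2.66, 1.72 and -3.94 at 30 µg/kg. Thus 6 libraries held more Dbp than Arntl and 6 held less, and each dose had both kinds: 2 of 3 libraries in vehicle and at 30 µg/kg held more Dbp, and 1 of 3 at the other doses. Dbp was not called against vehicle at 30 µg/kg (log2 difference -1.42, edgeR adjusted p = 0.666). What set the clock state of a library was not tested.

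The level of Cubn was then read beside the clock state of the libraries in each group. Among the libraries with less Dbp than Arntl, Cubn measured 1109 CPM in vehicle, 464 and 399 CPM at 3 µg/kg, 221 and 185 CPM at 10 µg/kg and 158 CPM at 30 µg/kg. Among those with more Dbp, it measured 1452 and 1185 CPM in vehicle, 1722 CPM at 3 µg/kg, 707 CPM at 10 µg/kg and 385 and 341 CPM at 30 µg/kg. In the first set the groups followed the dose without overlap, and in the second the 3 µg/kg library stood above vehicle. Within each dose, the lowest Dbp-high library exceeded the highest Dbp-low library, by 1.07-fold in vehicle and by 3.71-fold, 3.2-fold and 2.16-fold at 3, 10 and 30 µg/kg. Each of these comparisons set 1 library against 2. Neither for this order nor for that over dose was the share of all genes counted.

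**Figure D3:**
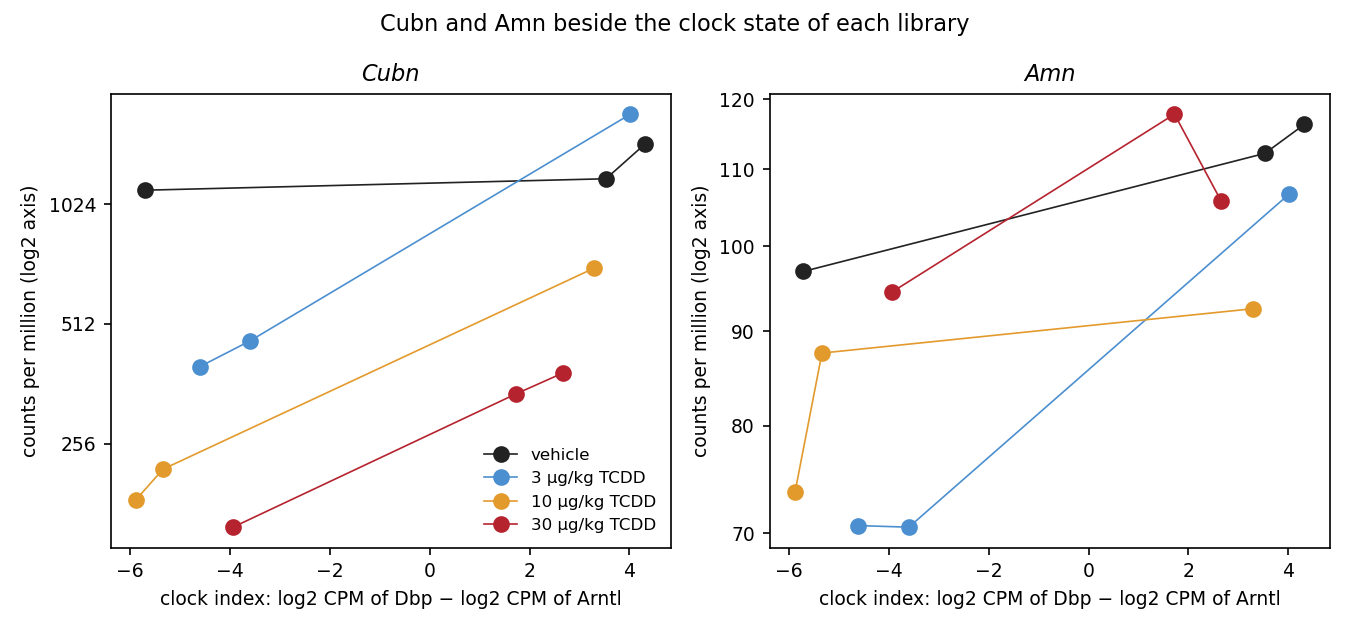
Level of Cubn and Amn in CPM (vertical log2 axes) against the clock index of the library (horizontal axis, log2 units). Each point is 1 library, coloured by dose, and thin lines join the 3 libraries of a dose. The 10 and 30 µg/kg lines of Cubn run below the vehicle line along their whole length, and those of Amn do not sort by dose.

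With the dose group in the model, 2 of the 6 members were called for a slope on the clock index, against 10.8% of all genes. For Cubn the slope was 1.51 on the log2 scale per 10 index units (SE 0.26, 95% interval 0.96 to 2.06, adjusted p = 0.00123 by edgeR's quasi-likelihood test), a rise of 2.85-fold over those units. For Amn the slope was 0.38 (SE 0.09, edgeR adjusted p = 0.0127). The Amn call was lost without 3 µg/kg replicate 1, at 0.26 (edgeR adjusted p = 0.0576). It was also lost with the library index as a covariate, at 0.34 (edgeR adjusted p = 0.0692). With a score over more clock genes in place of the index it was lost too, at 0.35 (edgeR adjusted p = 0.0501). The slope was 0.17 for Lmbrd1 (edgeR adjusted p = 0.171), 0.12 for Tcn2 and -0.04 for Abcc1. Cd320, with its low counts, had a fitted slope above that of Amn, at 0.47, and was not called (SE 0.36, edgeR adjusted p = 0.472). Counting Cubn itself, 121 of the 15823 genes had a slope as high as that of Cubn or higher.

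With the clock index in the model, the dose effect on Cubn was estimated with about the same size and a smaller error. Cubn was then lower at 10 µg/kg, at -1.61 on the log2 scale (SE 0.30, adjusted p = 0.0181 by edgeR), and at 30 µg/kg by -2.20 (SE 0.31, 95% interval -2.87 to -1.54, edgeR adjusted p = 0.000428), which is 4.61-fold. Both were past the threshold, as were 0.872% and 5.49% of all genes in that model. The 3 µg/kg value was -0.61 with a 95% interval of -1.24 to 0.02 (adjusted p = 0.389 by edgeR), and 0.341% of all genes passed at that dose. None of the other 5 members was called at any dose with the clock index in the model, and for Amn the log2 change at 30 µg/kg was -0.01 (edgeR adjusted p = 0.953). That model gives all 12 libraries the same slope on the clock index for a gene. Fitted apart, the Cubn slope was 0.27 per 10 index units in vehicle and 2.18 in TCDD libraries. The difference rests on vehicle replicate 1, and the Cubn dose values of this model hold only if the slope is shared.

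Other genes that handle cobalamin were read from a list of 15, of which 13 were tested. Megalin (Lrp2), the large endocytic receptor that works with cubilin in the kidney, had 0 to 12 counts per library and was not tested. Its adaptor Dab2 had 14 to 63 counts and differed by 0.31 on the log2 scale at 30 µg/kg (edgeR adjusted p = 0.67). The lysosomal exporter Abcd4 differed by -0.23 (edgeR adjusted p = 0.258), and Mmachc, which processes cobalamin in the cytosol, by 0.23 (edgeR adjusted p = 0.656). None of Dab2, Abcd4 and Mmachc passed the test.

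In that list 1 of the 13 genes tested was called higher at 30 µg/kg and 0 were called lower. Among all genes 3.08% were called higher and 0.891% lower. The gene called was Mmab, the mitochondrial enzyme that makes adenosylcobalamin, the cofactor of methylmalonyl-CoA mutase. Mmab measured 5.87, 6.62 and 6.36 CPM in vehicle and 13.2, 9.06 and 11.01 CPM at 30 µg/kg. The 30 µg/kg libraries all lay above vehicle, as they did for 14.2% of all genes. Mmab rose by 0.83 on the log2 scale (SE 0.18, edgeR adjusted p = 0.017), and the trend over dose gave the same size (edgeR adjusted p = 0.0119). The call at 30 µg/kg was lost without any 1 of the vehicle libraries (edgeR adjusted p from 0.05 to 0.057) and without 30 µg/kg replicate 1 (0.0765 by edgeR), and the trend call without that last library (0.0556 by edgeR). In the same list Mmadhc, Mut and Lrpap1 also had every 30 µg/kg library above vehicle without being called. Abcd4 had every 30 µg/kg library below vehicle, as 12.5% of all genes did, and was not called either. On the clock index 0 of the 13 were called, against 10.8% of all genes.

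**Figure D4:**
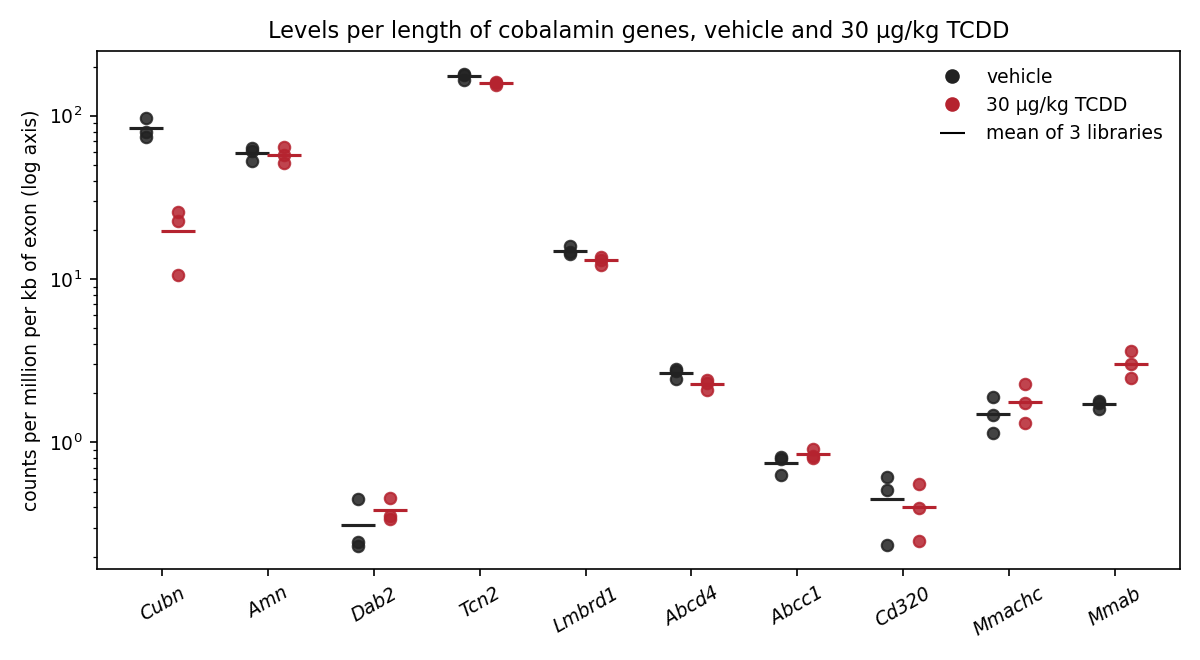
Level in CPM per kb of exon (vertical log axis) of 10 cobalamin genes (Cubn, Amn, Dab2, Tcn2, Lmbrd1, Abcd4, Abcc1, Cd320, Mmachc and Mmab) in the 3 vehicle libraries (black) and the 3 libraries at 30 µg/kg (red), with horizontal bars for the means. Cubn falls from above Amn to below it, and the red points of Mmab all lie above its black ones.

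Carriers of other vitamins gave a comparison in the same libraries. Of 14 such genes 12 were tested, and 0 were called against vehicle at any dose, where at most 3.97% of all genes were called. On the clock index 5 of the 12 were called, all higher in libraries rich in Dbp, a direction called in 6.09% of all genes. They were the ascorbate carriers Slc23a1, at 1.40 per 10 index units (edgeR adjusted p = 1.24e-06), and Slc23a2, at 0.43, the biotin and pantothenate carrier Slc5a6, at 1.27 (edgeR adjusted p = 2.87e-05), the folate carrier Slc46a1, at 0.87, and the thiamine carrier Slc19a2, at 0.44. At 30 µg/kg, Slc23a1 differed from vehicle by -0.21 (edgeR adjusted p = 0.841) and Slc5a6 by -0.07 (edgeR adjusted p = 0.952). Of the 11 enterocyte markers, 4 (Fabp2, Sis, Anpep and Slc5a1) were called higher on the clock index as well. Summed, the 11 ran from 45803 to 53770 CPM in the libraries with less Dbp than Arntl. In those with more Dbp the sum ran from 54496 to 68041 CPM. The part of this difference in the Cubn values was not tested.

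Of 14 genes of apical endocytosis and the lysosome, 13 were tested. None was called against vehicle at any dose, where at most 3.97% of all genes were called. On the clock index 2 of the 13 were called, against 10.8% of all genes: the lysosomal membrane proteins Lamp1, at 0.31 (edgeR adjusted p = 0.0316), and Lamp2, at -0.57 (edgeR adjusted p = 0.000166), in opposite directions.

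Cubn varied more within doses than most genes. The SD of its log2 CPM within doses was 0.86, at or above that of 97.5% of genes, against a median of 0.24 over all genes. It was 0.22 for Amn, 0.11 for Lmbrd1, 0.24 for Abcc1 and 0.16 for Tcn2. Over the 12 libraries the log2 CPM of Cubn correlated with that of Lmbrd1 at r = 0.82, with Tcn2 at 0.51, with Amn at 0.48 and with Abcc1 at -0.63. Amn correlated with Tcn2 at r = 0.83. These correlations share the dose groups and the clock states, and they are descriptions over 12 points.

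Among 10217 protein-coding genes compared with Cubn in this way, 19 had r of at least 0.9 and 11 had r of at most -0.9. The 8 most like it were Sord (r = 0.95), which encodes sorbitol dehydrogenase, Scarf1, Arhgef26, Sgk3 (each 0.93), Tshz1, Slc13a1, Tmem144 and Nid2 (each 0.92). Slc13a1 encodes a sodium sulfate cotransporter of the brush border. It differed from vehicle by -2.02 on the log2 scale at 30 µg/kg (edgeR adjusted p = 0.0488) with a clock slope of 1.59, both near the values of Cubn. Because Slc13a1 was picked for its correlation with Cubn in these same libraries, that nearness follows in part from the choice. Sgk3, a protein kinase, differed by -1.34 at 30 µg/kg (edgeR adjusted p = 0.0362) with a clock slope of 1.01. After the mean of each dose was taken out, r was 0.92 for Sord, 0.91 for Slc13a1 and 0.89 for Sgk3.

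The 4 genes most unlike Cubn were Eml4 (r = -0.97), the mitochondrial ribosome genes Mrps7 (-0.96) and Mrps22 (-0.95), and Oit1 (-0.94). Oit1 rose by 1.18 at 30 µg/kg on the log2 scale (edgeR adjusted p = 0.0215) and had a clock slope of -0.78.

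**Figure D5:**
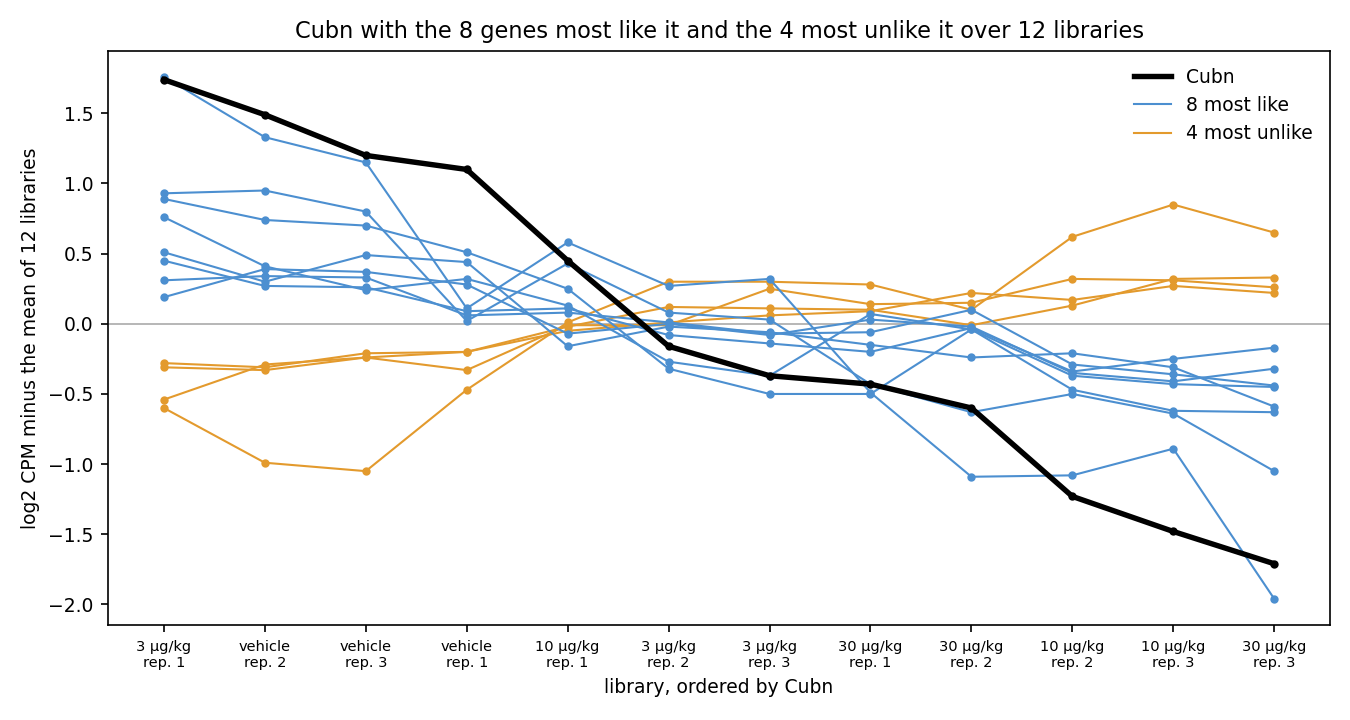
Log2 CPM minus the mean of 12 libraries (vertical axis) for Cubn (black), the 8 genes most like it (blue) and the 4 most unlike it (orange), with the libraries ordered by Cubn (horizontal axis). The 3 µg/kg replicate 1 library and the 3 vehicle libraries are on the left, and 10 µg/kg replicates 2 and 3 and 30 µg/kg replicate 3 on the right.

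The other members had other neighbours. Amn was most like Ppp2r5d, Ppm1j and Epas1 (each r = 0.97), and Lmbrd1 most like Hook2 (0.94), Cyb5b and Crat (each 0.93). Abcc1 was most like Diaph3 (0.95), Ect2 (0.93) and Anln (0.92), which act in cell division. Tcn2 was most like Tmem94 (0.96), Furin (0.95) and Cdhr5 (0.93), and Cd320, with its low counts, reached no more than 0.84 (Borcs5).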

How the data were processed

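Counts of reads per gene were deposited by the authors as 1 file per library, and they are used here as raw counts. The submitters' processing notes name FastQC 0.11.3, Trimmomatic 0.33, TopHat2 2.1.0, SAMtools 1.2.0 and HTSeq 0.6.1 with GRCm38; the annotation release and strand setting are not given in the sources used here. Ensembl identifiers were matched to GENCODE M21 (45143 of 46078; the rest held 0.749% of counts). Rows that name no gene were left out: reads outside features came to 25% to 30.07% of all counts in the files, and reads mapped more than once to 31.43% to 38.79%. A floor of 3 counts equals 0.135 to 0.257 CPM, for counting error only.

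Groups follow the labelled dose. The replicate numbers used here follow the order in which the libraries of a dose are listed, and they are not labels of the series. Genes were filtered (filterByExpr), scaled (TMM) and tested over all 12 libraries with edgeR 4.0.16 (quasi-likelihood, R 4.3.3), and p-values were adjusted over all 15823 genes by Benjamini-Hochberg. A call needed an adjusted p under 0.05 and a change of 1.5-fold, or the adjusted p alone for clock slopes. Trends used dose rank, and slopes are per 10 units of the clock index. Alternatives included limma 3.58.1 and DESeq2 1.42.0, and the fit was tested on simulated data. Per-length values use all exon bases of a gene. Genes named as most like or unlike a member were the 8 and 4 for Cubn and the 3 for each other member with the most extreme Pearson correlation of log2 CPM (prior count 2) among protein-coding genes with a mean count of at least 50. Genes of the listed pathways were named where called. The members and lists were chosen with earlier results of these data known. The p-values measure the spread between libraries described as biological replicates.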

Additional observations from a re-analysis of the deposited data

Results flagged for a closer look

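The relation of Cubn to the clock index differed between vehicle and TCDD libraries. It was tested with separate slopes for the 3 vehicle and the 9 TCDD libraries, a test chosen after the values had been seen. The slope was 0.27 on the log2 scale per 10 index units in vehicle (SE 0.16, 95% interval -0.07 to 0.62) and 2.18 in the TCDD libraries (SE 0.11, 95% interval 1.94 to 2.42). The difference was 1.90 (SE 0.19, edgeR adjusted p = 0.00262), and Cubn was the 1 gene called of 15823 (0.00632%), with 662 genes at an unadjusted p under 0.05. For Amn the difference was 0.19 (SE 0.19, edgeR adjusted p = 0.996).

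The result rests on vehicle replicate 1, the 1 vehicle library with less Dbp than Arntl. Without it the difference was -1.53 (SE 2.03, edgeR adjusted p = 1). Without any other single library it lay between 1.75 and 2.08, with Cubn called each time by edgeR. With limma-voom it was 1.90 (adjusted p = 0.002), and with a score over more clock genes in place of the index it was 2.01 and not called (edgeR adjusted p = 0.555). The cause was not tested.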

How the results depend on the processing

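Cubn at 30 µg/kg, not called as reported, passed the threshold without the filter on low counts (-2.08, adjusted p = 0.0021), with limma-voom (-2.17, 0.0449), with the library index (3 barcodes, each used once per dose) as a covariate (-2.27, 0.0133), with the clock index as a covariate (-2.20, 0.000428) and with only the groups compared in the fit (-2.08, 0.00543), which made 1 member called in each. Over the libraries left out it ran from -2.32 to -1.78 (edgeR adjusted p from 0.0167 to 0.18), and 0 to 1 members were called. Of 23 alternatives in all, 7 called Cubn at 30 µg/kg and 16 left it uncalled. At 10 µg/kg Cubn passed without the filter (-1.75, 0.0314) and with the clock index (-1.61, 0.0181), with 1 member called in each. At 3 µg/kg, leaving out libraries gave 0 to 1 members called. The trend of Cubn ran from -2.46 to -2.02 over the libraries left out, with 0 to 1 members called, and robust estimation of the spread left -2.23 not called (0.0699; 0 members). The ordinary estimate is the default of edgeR, and it was set in place after the robust values had been seen. The step of Cubn from 10 to 30 µg/kg ran from -0.65 to 0.53, the latter without 10 µg/kg replicate 1. The clock slope of Cubn was 1.42 and not called without the dose group (edgeR adjusted p = 0.146), and 1 member, Amn, was then called. With the library index and with the clock score 1 member was called as well, there Cubn and not Amn. Leaving out libraries gave slopes of 1.21 to 2.17 and 1 to 2 members called.

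Uncalled values of the other members changed sign in places. The trend of Amn was 0.02 with the clock index, that of Cd320 0.01 with the library index and 0.06 with the clock index, and the clock slope of Abcc1 0.08 with the library index. Over the libraries left out, Amn ran from -0.11 to 0.04 at 30 µg/kg, -0.06 to 0.27 from 3 to 10 µg/kg and -0.14 to 0.10 in the trend. Cd320 ran from -0.15 to 0.43 at 10 µg/kg, -0.52 to 0.06 at 30 µg/kg and -0.25 to 0.26 in the trend. Abcc1 ran from -0.08 to 0.31 at 3 µg/kg and -0.25 to 0.19 in its clock slope. Lmbrd1 ran from -0.10 to 0.08 from 3 to 10 µg/kg and -0.07 to 0.02 from 10 to 30 µg/kg. Tcn2 ran from -0.07 to 0.24 from 3 to 10 µg/kg and -0.05 to 0.21 in its clock slope. The causes were not tested.
Over all alternatives, the genes called numbered 6 to 162 at 3 µg/kg (36 as reported), 45 to 262 at 10 µg/kg (97), 9 to 43 from 3 to 10 µg/kg (25), 188 to 613 from 10 to 30 µg/kg (439), 297 to 722 in the trend (520) and 1088 to 1856 on the clock index (1708).
No paired analysis was possible because the labels give no replicate numbers, and the barcodes, which are not stated to mark a shared animal, litter or day, were entered only as the covariate above.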
